A study of Homo sapiens with 9 samples.

Results

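HuH-7 is a cell line grown from a human hepatocellular carcinoma, and the comparison described here is the HuH-7 culture given arsenic at 15 µM against the culture left untreated. The members are the 2 libraries of that comparison, of 9 in the series, and all 18237 genes that had at least 1 CPM (counts scaled to a common library size) in 2 or more of the 9 libraries. Each condition was sequenced as 1 library of ribosomal RNA-depleted total RNA on an Ion Torrent Proton. The other 7 cultures received acetaminophen 10 mM, serum exosomes, acetaminophen 10 mM with serum exosomes, caffeine 2 mM, acetaminophen 10 mM with caffeine 2 mM, arsenic 5 µM, or arsenic 5 µM with copper 5 µM. Neither the chemical form of the arsenic nor the length of the exposure is stated in the labels.

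With 1 library a side there is no replicate spread, and no test or p-value is given. Each value is a CPM scaled by the trimmed mean of M values (TMM), each ratio is arsenic 15 µM over control or its inverse, and the interval in brackets is the exact 95% interval for counting error alone. A gene is called apart when its ratio is 2 or more either way and the interval excludes 1. A stricter description asks in addition that the arsenic 15 µM value lie outside the range of the 6 libraries without arsenic, which are the control and the 5 acetaminophen, exosome and caffeine cultures. Those 6 are different conditions and are not replicates of the control.

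Trivalent arsenic binds closely spaced thiol groups in proteins. Cells are known to answer it through HSF1, which drives chaperone genes when proteins misfold, and through NRF2, which drives glutathione, thioredoxin and heme oxygenase genes. Metal-sensing MTF1 drives metallothioneins, and the HRI kinase is known to start the ATF4 programme under arsenite. Hepatoma cells such as HuH-7 make plasma proteins, among them albumin, fibrinogen and apolipoproteins, as well as the fetal protein AFP.

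Promoters of genes that 3 of these regulators are known to control are shown first, because the genes next to them carry some of the widest differences of the comparison. Each is 1 window from RefSeq on GRCh38.p14, from 250 bases before to 50 bases after the start site, read 5′ to 3′ on the gene's strand. For each gene 1 start site was used, and other start sites that a gene may have were not searched. In the first 4, capitals mark pairs of facing heat shock units, GAANNTTC or TTCNNGAA, 2 of the units that make up the longer heat shock element of 3. The longer element was in the windows of HSPA6, CHORDC1 and HSPA8 and not in that of HSPA1A. HSPA6 lies at chr1:161524290-161524589 on the plus strand, HSPA1A at chr6:31815293-31815592 on the plus strand, CHORDC1 at chr11:90223000-90223299 on the minus strand and HSPA8 at chr11:123062087-123062386 on the minus strand.
HSPA6: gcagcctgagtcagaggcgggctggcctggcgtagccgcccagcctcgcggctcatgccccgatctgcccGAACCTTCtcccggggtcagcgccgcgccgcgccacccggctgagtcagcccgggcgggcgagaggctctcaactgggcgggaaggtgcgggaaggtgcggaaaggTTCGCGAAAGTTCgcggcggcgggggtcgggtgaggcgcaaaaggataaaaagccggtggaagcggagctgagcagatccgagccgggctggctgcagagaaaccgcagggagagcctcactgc
HSPA1A: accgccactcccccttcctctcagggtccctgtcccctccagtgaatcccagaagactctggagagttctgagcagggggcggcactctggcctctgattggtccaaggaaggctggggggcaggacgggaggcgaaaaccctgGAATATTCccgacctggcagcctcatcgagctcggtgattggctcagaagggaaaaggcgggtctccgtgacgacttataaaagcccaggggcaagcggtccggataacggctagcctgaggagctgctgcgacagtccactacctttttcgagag
CHORDC1: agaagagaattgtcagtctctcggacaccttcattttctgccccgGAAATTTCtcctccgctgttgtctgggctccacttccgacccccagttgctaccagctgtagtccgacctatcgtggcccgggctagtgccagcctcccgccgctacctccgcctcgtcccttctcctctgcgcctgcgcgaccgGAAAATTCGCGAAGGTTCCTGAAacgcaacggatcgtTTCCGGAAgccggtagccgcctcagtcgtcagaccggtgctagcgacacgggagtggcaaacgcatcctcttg
HSPA8: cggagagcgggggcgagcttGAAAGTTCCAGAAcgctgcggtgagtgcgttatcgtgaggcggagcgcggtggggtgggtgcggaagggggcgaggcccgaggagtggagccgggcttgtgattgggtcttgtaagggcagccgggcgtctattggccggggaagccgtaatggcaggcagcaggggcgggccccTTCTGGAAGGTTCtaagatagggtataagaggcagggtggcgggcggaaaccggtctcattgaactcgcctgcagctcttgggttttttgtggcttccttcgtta

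The first 3 of these genes were higher with arsenic 15 µM. HSPA8, which encodes the constitutive HSP70, is shown as a contrast picked after its value was seen: it holds 4 matches in its window and was at 2695 CPM in the control and 3058 CPM with arsenic 15 µM. The full heat shock element, GAANNTTC followed by NNGAA or TTCNNGAA followed by NNTTC on either strand, was in 6 of 51 chaperone-list genes with a window, or 11.8%, against 0.487% of all 27305 windows and 0.357% of the windows of 11213 compared protein-coding genes. Of those 6 genes 5 were apart and higher, and HSPA8 was the other. The shorter pair of units was searched after the values were seen. It was in 11 of 27 chaperone-list genes apart and higher, or 40.7%, and in 4 of the 24 others, or 16.7%. The pair was in 13.7% of all windows and in 10.3% of those of compared protein-coding genes. Among all compared protein-coding genes apart and higher the share was 9.77%, so over the whole comparison the pair was not more frequent in higher genes. A match is a string of letters and not a measured binding site.

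The metal response element, TGCGCNC or TGCACNC on either strand, is in capitals in the next pair of windows. MT1X lies at chr16:56682220-56682519 and MT2A at chr16:56608334-56608633, both on the plus strand. MT1X had 4 matches and MT2A had 8.
MT1X: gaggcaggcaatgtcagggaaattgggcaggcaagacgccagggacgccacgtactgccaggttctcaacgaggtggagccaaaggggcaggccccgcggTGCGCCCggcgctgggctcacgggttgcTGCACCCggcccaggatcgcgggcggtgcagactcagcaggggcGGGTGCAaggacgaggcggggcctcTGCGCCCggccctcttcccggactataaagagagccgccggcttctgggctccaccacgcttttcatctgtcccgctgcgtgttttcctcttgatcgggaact
MT2A: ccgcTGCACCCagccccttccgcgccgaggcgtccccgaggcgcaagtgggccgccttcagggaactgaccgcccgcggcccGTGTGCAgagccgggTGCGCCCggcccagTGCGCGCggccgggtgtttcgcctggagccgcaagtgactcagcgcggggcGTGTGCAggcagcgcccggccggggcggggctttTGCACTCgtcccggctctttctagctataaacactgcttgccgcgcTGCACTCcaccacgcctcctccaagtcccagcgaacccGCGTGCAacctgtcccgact

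The metal element was a common string, in 29.3% of all windows and 38.4% of those of compared protein-coding genes. In the metallothionein and zinc list 4 of 6 windows held it. The last pair shows the ATF4 element, TGATGNAA on either strand, in capitals. CHAC1, which encodes an enzyme that breaks down glutathione, lies at chr15:40953221-40953520, and ATF3, which encodes a stress transcription factor, at chr1:212565157-212565456, both on the plus strand. Whether the ATF3 start site shown was the one in use in these cells was not tested.
CHAC1: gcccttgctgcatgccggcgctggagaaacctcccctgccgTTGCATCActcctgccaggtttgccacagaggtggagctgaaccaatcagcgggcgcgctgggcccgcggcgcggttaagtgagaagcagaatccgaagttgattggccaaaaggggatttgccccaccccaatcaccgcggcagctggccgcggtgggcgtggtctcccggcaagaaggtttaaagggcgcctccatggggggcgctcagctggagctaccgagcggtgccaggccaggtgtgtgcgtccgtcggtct
ATF3: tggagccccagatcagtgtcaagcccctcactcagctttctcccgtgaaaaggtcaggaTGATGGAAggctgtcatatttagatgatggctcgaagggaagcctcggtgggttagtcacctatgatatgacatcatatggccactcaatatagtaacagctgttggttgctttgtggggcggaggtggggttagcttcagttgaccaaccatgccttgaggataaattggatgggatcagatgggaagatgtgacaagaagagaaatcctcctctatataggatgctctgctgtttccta

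The ATF4 element was in 7 of 24 windows of the ATF4 and CHOP list, or 29.2%, against 3.67% of all windows and 1.89% of those of compared protein-coding genes. The 7 genes were AARS1, ASNS, ATF3, CARS1, CHAC1, PPP1R15B and SLC7A1, with log2 ratios from 1.62 for AARS1 to 6.16 for ATF3. The antioxidant response element, TGACNNNGC on either strand, was in 6 of 13 windows of the glutathione list and 4 of 19 of the thioredoxin list. Its share was 13.6% of all windows and 14.9% of those of compared protein-coding genes. The 6 glutathione genes were split: GCLM and SLC3A2 were apart and higher, GPX2, GSTA4 and GSTM1 apart and lower, and GSTP1 was not called apart. The antioxidant and metal elements were not particular to their own lists. The antioxidant element was also in 4 of 6 metallothionein windows and 7 of 24 ATF4 list windows. The metal element was in 7 of 13 glutathione and 9 of 19 thioredoxin windows. For the ATF4 element those counts were 2 of 13 and 0 of 19.

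The arsenic 15 µM library held 2985304 gene counts and the control 951816, within a range of 658725 to 8227906 over the 9 libraries. The control's depth sets the precision: a control value of 5 CPM rests on 5 counts, with a counting interval of 1.57 to 11.3 CPM, and 1 of 50 CPM spans 37.5 to 65.8 CPM. Protein-coding genes took 86.1% of gene counts with arsenic 15 µM and 77.6% in the control. Log2 ratios rose with transcript length (Pearson r = 0.272 across 17741 genes, which are not independent). Their median went from -0.90 in the group of 3551 genes with the shortest transcripts to 0.57 in the 3546 with the longest, and the exosome library against the same control had an r of 0.187. The arsenic 5 µM library, whose values stand beside those of 15 µM below, had 35.5% of its gene counts in small nucleolar RNAs, against 3.41% to 11.5% in the other 8. Depth, length and treatment cannot be told apart with 1 library a side.

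All 10 hepatocyte markers were present in both libraries, with a summed level of 15599 CPM in the control and 6881 CPM with arsenic 15 µM, below the range of 11220 to 17340 CPM without arsenic. Markers of other cell types were low: 10 fibroblast and stellate markers summed to 66.6 and 49.8 CPM, 9 endothelial markers to 31.8 and 15.1 CPM, 11 leukocyte markers to 174 and 30.5 CPM, and 8 red cell and platelet markers to 2.89 and 1.43 CPM. PECAM1, CDH5, CD3E, MS4A1, DCN and THY1 had no count in either library. Most of the leukocyte sum was LYZ, the lysozyme gene, at 164 CPM in the control and 26.2 CPM with arsenic 15 µM, and its part in other results was not tested. In bulk RNA, fewer cells of a kind and less RNA per cell cannot be told apart.

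Between the 2 libraries 5632 of 18237 genes were apart, or 30.9%. Of these, 3037 were higher with arsenic 15 µM (16.7%) and 2595 lower (14.2%), and with library totals in place of TMM the split was 2485 higher and 3191 lower. Beyond the range of the 6 libraries without arsenic lay 2314 of the higher genes (12.7% of all compared) and 1613 of the lower ones (8.84%). The wide ratios were mostly on the higher side: 389 genes were apart by 16-fold or more upward and 147 downward, and at 64-fold or more there were 67 and 5. These percentages are the background for the counts of each gene group below, whose medians stand against a median log2 ratio of 0.00 over all compared genes. Most lists hold protein-coding genes, and among the 13906 of these 2843 were apart and higher, or 20.4%, and 2017 apart and lower, and the median was 0.12.

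**Figure D1:**
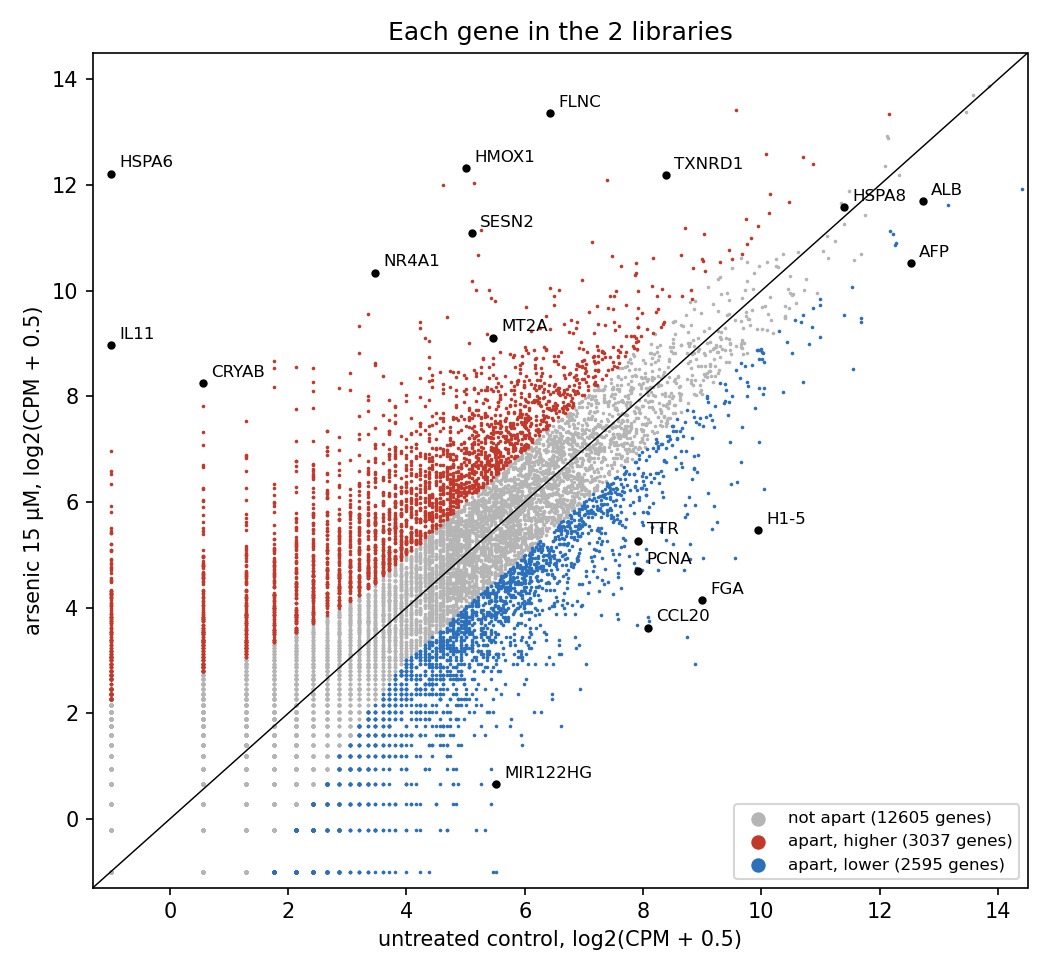
Each point is 1 of 18237 genes, with log2(CPM + 0.5) in the untreated control on the x axis and in the arsenic 15 µM library on the y axis; red and blue points are apart and the line marks equal values. HSPA6 and IL11 sit at the left edge, with no count in the control, while FLNC, at 10480 CPM, is near the top of the arsenic axis.

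Chaperones of the HSP70 family, which hold unfolded proteins and help them refold, were the widest apart of the protein-folding genes. Of 13 compared HSP70 and HSP110 genes 10 were apart and higher, 8 of them above all libraries without arsenic, none was apart and lower, and the median log2 ratio was 1.66. HSPA6, a strictly inducible HSP70, had no count in the control, the acetaminophen, the exosome and the acetaminophen with exosomes libraries, 1.05 CPM with caffeine and 11.3 CPM with acetaminophen and caffeine. It was at 12.3 CPM with arsenic 5 µM, 268 CPM with arsenic 5 µM and copper 5 µM and 4759 CPM with arsenic 15 µM, at least 1644 times the 3-count floor of the control. Arsenic 15 µM thus stood alone at the top. Its 13271 counts for HSPA6 ranked 9 among the protein-coding genes with a symbol in that library.

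The stress-inducible pair HSPA1A and HSPA1B encode nearly the same protein, so how reads divided between them is uncertain. HSPA1A was at 24.1 CPM in the control and 4121 CPM with arsenic 15 µM, a ratio of 171 [116 to 264], while the 6 libraries without arsenic ran from 9.83 to 69.2 CPM with a median of 18.9. HSPA1B went from 34.7 to 4207 CPM, a ratio of 121 [87.4 to 173]. Both lay far above the arsenic 5 µM library, where HSPA1A was at 22.5 CPM and HSPA1B at 439 CPM.

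HSPH1, the HSP110 exchange factor that resets HSP70, was 12.3 times higher [9.95 to 15.3], at 1055 against 85.9 CPM. HSPA9, the mitochondrial HSP70, was 3.17 times higher [2.82 to 3.57], and HSPA5, the HSP70 of the endoplasmic reticulum, 2.18 times [2.03 to 2.34]. HSPA4, an HSP110 relative, had a ratio of 1.52 [1.27 to 1.82] and was not called apart. The inducible forms were thus many-fold further from the control than the constitutive HSPA8, whose ratio was 1.13 [1.09 to 1.18]. At arsenic 5 µM HSPA8 was at 6692 CPM, above the highest library without arsenic, at 2944 CPM, and with copper at 2918 CPM.

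J-domain proteins bring substrates to HSP70, and small heat shock proteins hold them in a state that can be refolded. Of 19 compared 11 were apart and higher and none apart and lower, with a median log2 ratio of 1.60. DNAJB1, the HSP40 partner of inducible HSP70, was at 168 CPM in the control, between 70.2 and 428 CPM without arsenic, and at 4352 CPM with arsenic 15 µM, 25.9 times the control [22.3 to 30.3]. At arsenic 5 µM it was at 70.6 CPM, inside the range without arsenic. DNAJA4 was at 3.86 and 378 CPM, a ratio of 98.0 [38.2 to 360].

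CRYAB, which encodes the small heat shock protein αB-crystallin, had 0.965 CPM in the control and 305 CPM with arsenic 15 µM, and its ratio of 316 has a wide interval [56.5 to 12492] because the control value is 1 count. HSPB8 was 28.5 times higher [18.4 to 46.8] and BAG3, its partner in delivering clients to autophagy, 34.3 times [21.9 to 57.2]. HSPB1, or HSP27, was 4.80 times higher [4.12 to 5.63] at 815 CPM.

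The HSP90 machine and the chaperonins were mixed. Among 24 compared genes 9 were apart and higher and 1 lower, with a median log2 ratio of 0.26. SERPINH1, the collagen chaperone, was 9.04 times higher [7.80 to 10.5]. The stress-inducible HSP90AA1 was at 6132 against 1087 CPM, a ratio of 5.64 [5.31 to 5.99], and HSP90AB1 at 5949 against 1667 CPM, a ratio of 3.57 [3.40 to 3.75]. Mitochondrial HSPD1 and HSPE1 were 3.06 [2.85 to 3.28] and 2.28 times higher [1.67 to 3.16], and CHORDC1, an HSP90 partner, 4.55 times [3.34 to 6.34]. HSF1, the regulator itself, had a ratio of 0.848 [0.670 to 1.08] at 84.3 CPM.

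Genes of the ubiquitin system, which tags damaged proteins, were mostly on the higher side. Of 16 genes in the ubiquitin and stress degradation list 9 were apart and higher and 1 lower. ZFAND2A, also called AIRAP and known as an arsenic-inducible partner of the proteasome, was 44.8 times higher [32.6 to 63.4] at 1643 CPM, and it was at 37.9 CPM at arsenic 5 µM, inside the range without arsenic. The proteasome list stayed near the background: of 32 genes 4 were apart and higher, 1 was apart and lower and the median log2 ratio was -0.09. The higher ones were PSME4, PSMD12, PSMD2 and NFE2L1, the last a transcription factor and not a subunit, and PSMD4 was the lower. The NFE2L1 call, at a log2 ratio of 1.06, was lost with library totals.

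Autophagy and lysosome genes were apart and higher in 15 of 26 cases and lower in none, with a median log2 ratio of 1.35. MAP1LC3B, which encodes the LC3 coat of the autophagosome, was 16.4 times higher [9.72 to 30.2], GABARAPL1, a relative, 8.91 times [6.26 to 13.1], and ULK1, the initiating kinase, 9.16 times [6.32 to 13.8]. SQSTM1, the p62 receptor that also binds KEAP1, was at 2338 against 416 CPM, 5.62 times higher [5.10 to 6.21].

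A set of 12 genes was picked with earlier results known (HSPA6, HSPA1A, HSPA1B, DNAJB1, HSPH1, HSP90AA1, HSP90AB1, HSPB1, BAG3, HSPD1, FLNC and HMOX1). Together they took 4.69% of the gene counts with arsenic 15 µM. They took 0.46% in the control and 0.241% to 0.559% over the 6 libraries without arsenic. With arsenic 5 µM the share was 0.587%, and with copper added 1.41%. FLNC, an actin crosslinker gene, gave 29224 of the arsenic 15 µM counts. All 12 were picked from genes high with arsenic 15 µM, so a larger share there was built in and adds no support.

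**Figure D2:**
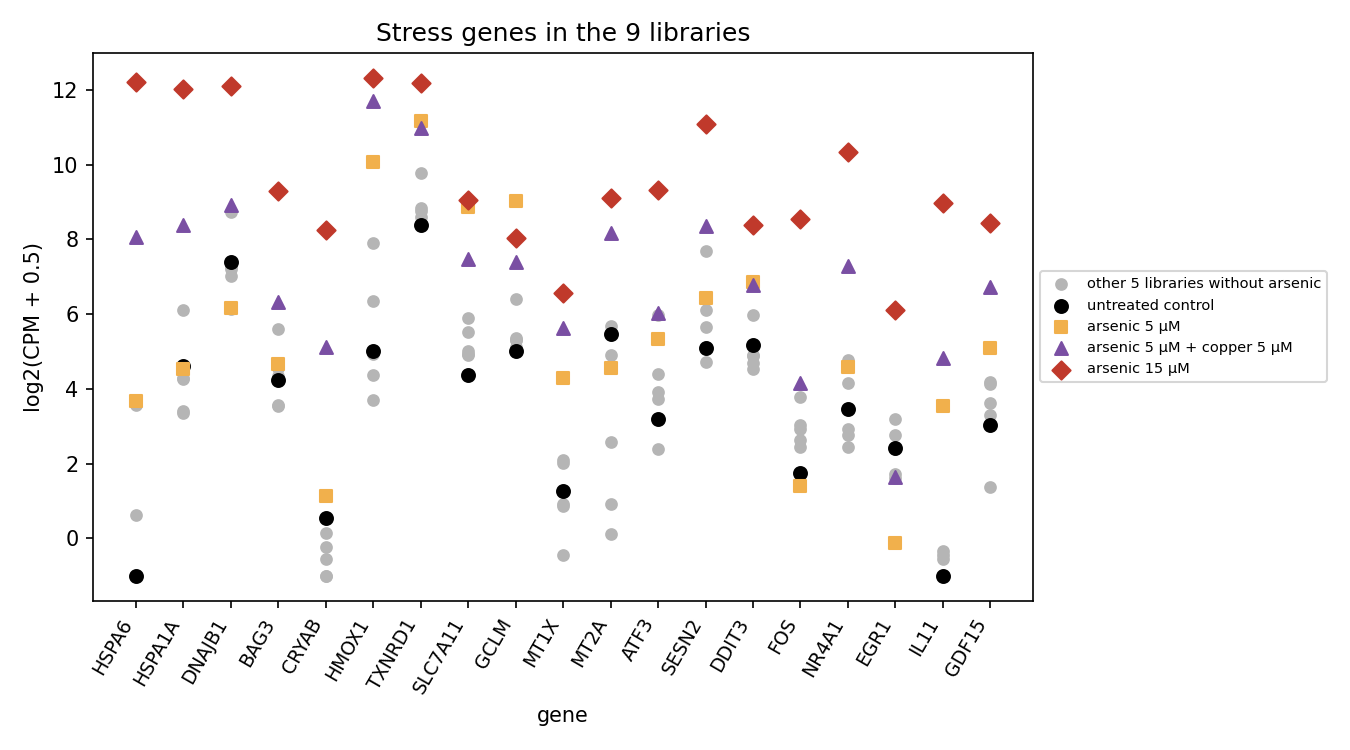
For 19 genes on the x axis, the y axis gives log2(CPM + 0.5) in each of the 9 libraries; red diamonds are arsenic 15 µM and black circles the control. The red diamond is the highest point for every gene shown except GCLM, where arsenic 5 µM, at 518 CPM, lies above the 262 CPM of 15 µM.

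HMOX1 encodes heme oxygenase, which splits heme into biliverdin, iron and carbon monoxide and is driven by NRF2 once BACH1 leaves its enhancers. It was at 5104 CPM with arsenic 15 µM, 160 times the control [114 to 233], and the 6 libraries without arsenic ran from 12.6 to 239 CPM with a median of 31.0. Of 16 heme and iron genes 8 were apart and higher and 2 lower. BLVRB, a biliverdin reductase, was 6.99 times higher [4.67 to 10.9], and BACH1 7.94 times [5.32 to 12.4].

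Iron storage and iron uptake went opposite ways. The ferritin genes FTL and FTH1 were 2.27 [2.21 to 2.35] and 3.25 times higher [2.90 to 3.66], FTL reaching 10360 CPM, though both have many processed copies that can take or lose reads. TFRC, the transferrin receptor that brings iron in, was 2.10 times lower [1.83 to 2.41], at 174 against 365 CPM. ALAS1, which starts heme synthesis, was 3.04 times higher [2.45 to 3.82].

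Glutathione and cystine genes included 9 of 19 apart and higher and 3 apart and lower. SLC7A11, the cystine importer, was at 20.3 CPM in the control, at most 58.6 CPM without arsenic and at 526 CPM with arsenic 15 µM, 25.9 times the control [16.9 to 42]. Its partner chain SLC3A2 was 5.41 times higher [4.75 to 6.19]. GCLM, the modifier of the enzyme that starts glutathione synthesis, was 8.24 times higher [5.82 to 12.1] and the catalytic GCLC 2.33 times [1.54 to 3.63], the second inside the range without arsenic. CHAC1, which degrades glutathione, was 37.4 times higher [20.8 to 75.1]. Lower were GPX2, a glutathione peroxidase, by 2.51 times [1.91 to 3.28], and the transferases GSTM1 and GSTA4, by 2.94 [1.19 to 7.34] and 2.69 times [1.01 to 7.20]. With trends on GC content and length removed none of these 3 was called apart, and the list held 8 apart and higher and 0 lower. Against the exosome library, a reference chosen after seeing the data, GCLC and GPX2 lost their calls.

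Thioredoxin, quinone and NADPH genes held 11 of 22 apart and higher and none apart and lower, and all 11 lay above the libraries without arsenic. TXNRD1, the thioredoxin reductase, was at 335 CPM in the control and 4670 CPM with arsenic 15 µM, 13.9 times higher [12.5 to 15.6]. The small MAF genes MAFF and MAFG, whose products pair with NRF2, were 15.5 [10.1 to 25.1] and 11.8 times higher [8.17 to 17.7]. SRXN1, which repairs peroxiredoxins, went from no count to 18.6 CPM, at least 6.44 times the floor. NQO1, the quinone reductase often read as an NRF2 target, did not follow: it was at 488 against 600 CPM, a ratio of 0.813 [0.739 to 0.895], and thioredoxin itself, TXN, had a ratio of 0.677 [0.578 to 0.796].

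Metallothioneins are small cysteine-rich proteins that bind zinc, copper and other metals. Of 11 genes in the metallothionein and zinc list 9 were apart and higher and none lower, with a median log2 ratio of 2.63, or 2.38 with absent genes at their bound. MT2A was at 43.4 CPM in the control, between 0.585 and 50.9 CPM over the 6 libraries without arsenic, and at 552 CPM with arsenic 15 µM, 12.7 times the control [9.45 to 17.5]. MT1X went from 1.93 to 95 CPM, 49.2 times [13.5 to 409] with 2 counts in the control, and MT1G from 0.965 to 43.0 CPM, 44.6 times [7.85 to 1776] with 1. SLC30A1, the zinc exporter of the cell surface, was 13.5 times higher [8.86 to 21.7]. The copies are close in sequence, so the division of reads among them is uncertain.

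Genes that methylate or carry arsenic differed less. Of 15 compared 5 were apart and higher and none lower. ABCC1 and ABCC2, pumps that export glutathione conjugates, were 2.93 [1.79 to 5.09] and 2.80 times higher [2.23 to 3.56], but neither was called apart against the exosome library. AQP3, a channel that also passes arsenite, was 8.10 times higher [3.37 to 25.5], at 39.1 CPM, but one library without arsenic reached 43.3 CPM.

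The ATF4 and CHOP programme, which answers stalled translation and amino acid shortage, was among the most uniform groups. Of 28 compared genes 24 were apart and higher, 23 of them above every library without arsenic, and none was apart and lower. Their median log2 ratio was 2.74. ATF3 was at 8.68 CPM in the control, between 4.78 and 62.2 CPM without arsenic, and at 640 CPM with arsenic 15 µM, 73.8 times higher [38.8 to 162]. SESN2, a stress sensor that restrains mTORC1, went from 33.8 to 2185 CPM, 64.7 times [46.5 to 93.0]. PPP1R15A, or GADD34, which brings the phosphatase to eIF2α, was 60.7 times higher [44.4 to 85.5].

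DDIT3, which encodes CHOP, was 9.41 times higher [6.78 to 13.5], TRIB3, a pseudokinase downstream of it, 13.9 times [11.8 to 16.5] and DDIT4, an mTORC1 inhibitor, 20.1 times [15.0 to 27.6]. ATF4 message, whose control is mainly translational, was 2.93 times higher [2.68 to 3.21]. Amino acid carriers and enzymes were in the same direction, with SLC7A1, the cationic carrier, at 932 against 42.5 CPM and ASNS, asparagine synthetase, at 276 against 40.5 CPM. One library without arsenic held more ASNS, 395 CPM.

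Aminoacyl-tRNA synthetases were split. Of 20 genes 9 were apart and higher, all 9 above the range without arsenic, and 2 lower, with a median log2 ratio of 0.42. CARS1, GARS1, WARS1 and SARS1, synthetases for cysteine, glycine, tryptophan and serine, were 6.61 [5.09 to 8.75], 4.34 [3.69 to 5.14], 3.98 [3.05 to 5.29] and 3.60 times higher [2.79 to 4.72].

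Chaperones of the endoplasmic reticulum did not move as 1 group: of 21 genes 5 were apart and higher and 6 lower, and the median log2 ratio was 0.00. HERPUD1, which acts in the removal of misfolded proteins from the reticulum, was 10.2 times higher [7.22 to 14.9] and ERN1, the IRE1 sensor, 8.07 times [4.97 to 14]. MANF, PDIA4 and PDIA6, a secreted chaperone factor and disulfide isomerases, were 6.10 [4.25 to 8.87], 5.29 [4.52 to 6.21] and 3.81 times lower [3.16 to 4.61]. CALR, calreticulin, was 2.21 times lower [2.09 to 2.34]. PDIA4 was also low at arsenic 5 µM, at 48.5 CPM against 455 CPM in the control.

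Immediate early transcription factors, which are switched on without new protein synthesis, had the highest median of any list, a log2 ratio of 3.75, or 3.13 with absent genes at their bound. Of 23 compared 19 were apart and higher and none lower. FOS was at 2.89 CPM in the control, at most 13.2 CPM without arsenic and at 372 CPM with arsenic 15 µM, 128 times the control [43.8 to 623] on 3 control counts. At arsenic 5 µM it was at 2.13 CPM and with copper at 17.4 CPM. NR4A1, an orphan nuclear receptor, was 122 times higher [68.3 to 245] at 1298 CPM.

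FOSL1 and FOSB, partners of JUN in AP-1, reached 134 and 95.4 CPM from 1 and 0 counts in the control, FOSB being at least 33.0 times the floor. JUN was 8.78 times higher [6.93 to 11.3] and EGR1, a zinc finger early gene, 14.1 times [5.95 to 44.0]. KLF6 was at 1032 against 35.7 CPM, 28.9 times higher [20.9 to 41.1]. MYC was 2.64 times higher [2.14 to 3.27].

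Among 23 early regulators 17 were apart and higher and 2 lower. DUSP1 and DUSP5, phosphatases that switch off MAP kinases, were 34.5 [24.8 to 49.7] and 10.8 times higher [8.80 to 13.3]. DUSP6, the ERK phosphatase of the same family, was 4.25 times lower [3.40 to 5.33], at 47.0 against 200 CPM, but the libraries without arsenic ran from 11.3 to 200 CPM, so this value was inside their range. GADD45B and GADD45A, adaptors of stress kinases, were 42 [20.3 to 105] and 36.3 times higher [20.2 to 72.9].

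Secreted factors included some of the widest ratios in either direction. IL11, a cytokine of the IL-6 family, had no count in the control and at most 0.299 CPM in any library without arsenic, and was at 502 CPM with arsenic 15 µM, at least 174 times the floor. It was at 11.1 CPM at arsenic 5 µM and 27.8 CPM with copper. GDF15, a stress hormone that acts on appetite, was 45.2 times higher [22.8 to 105]. CXCL8, the neutrophil chemokine IL-8, was 4.29 times higher [2.90 to 6.62], whereas its neighbours in function CCL20 and CXCL1 were 22.8 [15.9 to 33.8] and 30.9 times lower [7.65 to 271].

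FLNC, which encodes the actin crosslinker filamin C, was at 85.9 CPM in the control, at most 97.6 CPM without arsenic, 1335 CPM at arsenic 5 µM and 10480 CPM at 15 µM, a ratio of 122 [99.1 to 152]. Other actin and SRF target genes were apart and higher in 11 of 24 cases and lower in 2. ANKRD1 was 37.0 times higher [23.6 to 61.6] and CNN1, calponin, 59.1 times [16.2 to 490] on 2 control counts. DNAH17, an axonemal dynein gene, reached 407 CPM from 2.89 CPM.

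Some genes of cell cycle arrest and apoptosis were far above the control. CDKN1A, the p21 inhibitor of cyclin-dependent kinases, was at 9.65 CPM in the control, at most 106 CPM without arsenic and at 752 CPM with arsenic 15 µM, 78.0 times higher [42.3 to 163]. In the BCL2 family 4 of 16 were apart and higher, or 25%, near the 20.4% of compared protein-coding genes, and 0 were lower. The family median log2 ratio was 0.56. The 4 were PMAIP1 (NOXA), higher by 45.2 times [19.3 to 140], BBC3 (PUMA) by 12.2 times [5.12 to 38], HRK by 13.8 times [2.32 to 558] and the protective MCL1 by 5.65 times [4.80 to 6.70].

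Hypoxia targets and clock genes leaned higher, with 7 of 17 and 8 of 17 apart and higher and 2 and 0 lower. ADM, adrenomedullin, was 21 times higher [13.7 to 34.1] and VEGFA 4.45 times [3.61 to 5.55]. NR1D2 and CRY1, repressors in the clock, were 7.75 [4.45 to 14.7] and 7 times higher [4.64 to 11]. Hypoxia members ran from a log2 ratio of -1.72 to 4.38, and their median of 0.91 was 0.45 with absent genes at their bound. With length and GC trends removed the hypoxia median went from 0.91 to 0.04 and the clock median from 1.29 to 0.61.

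**Figure D3:**
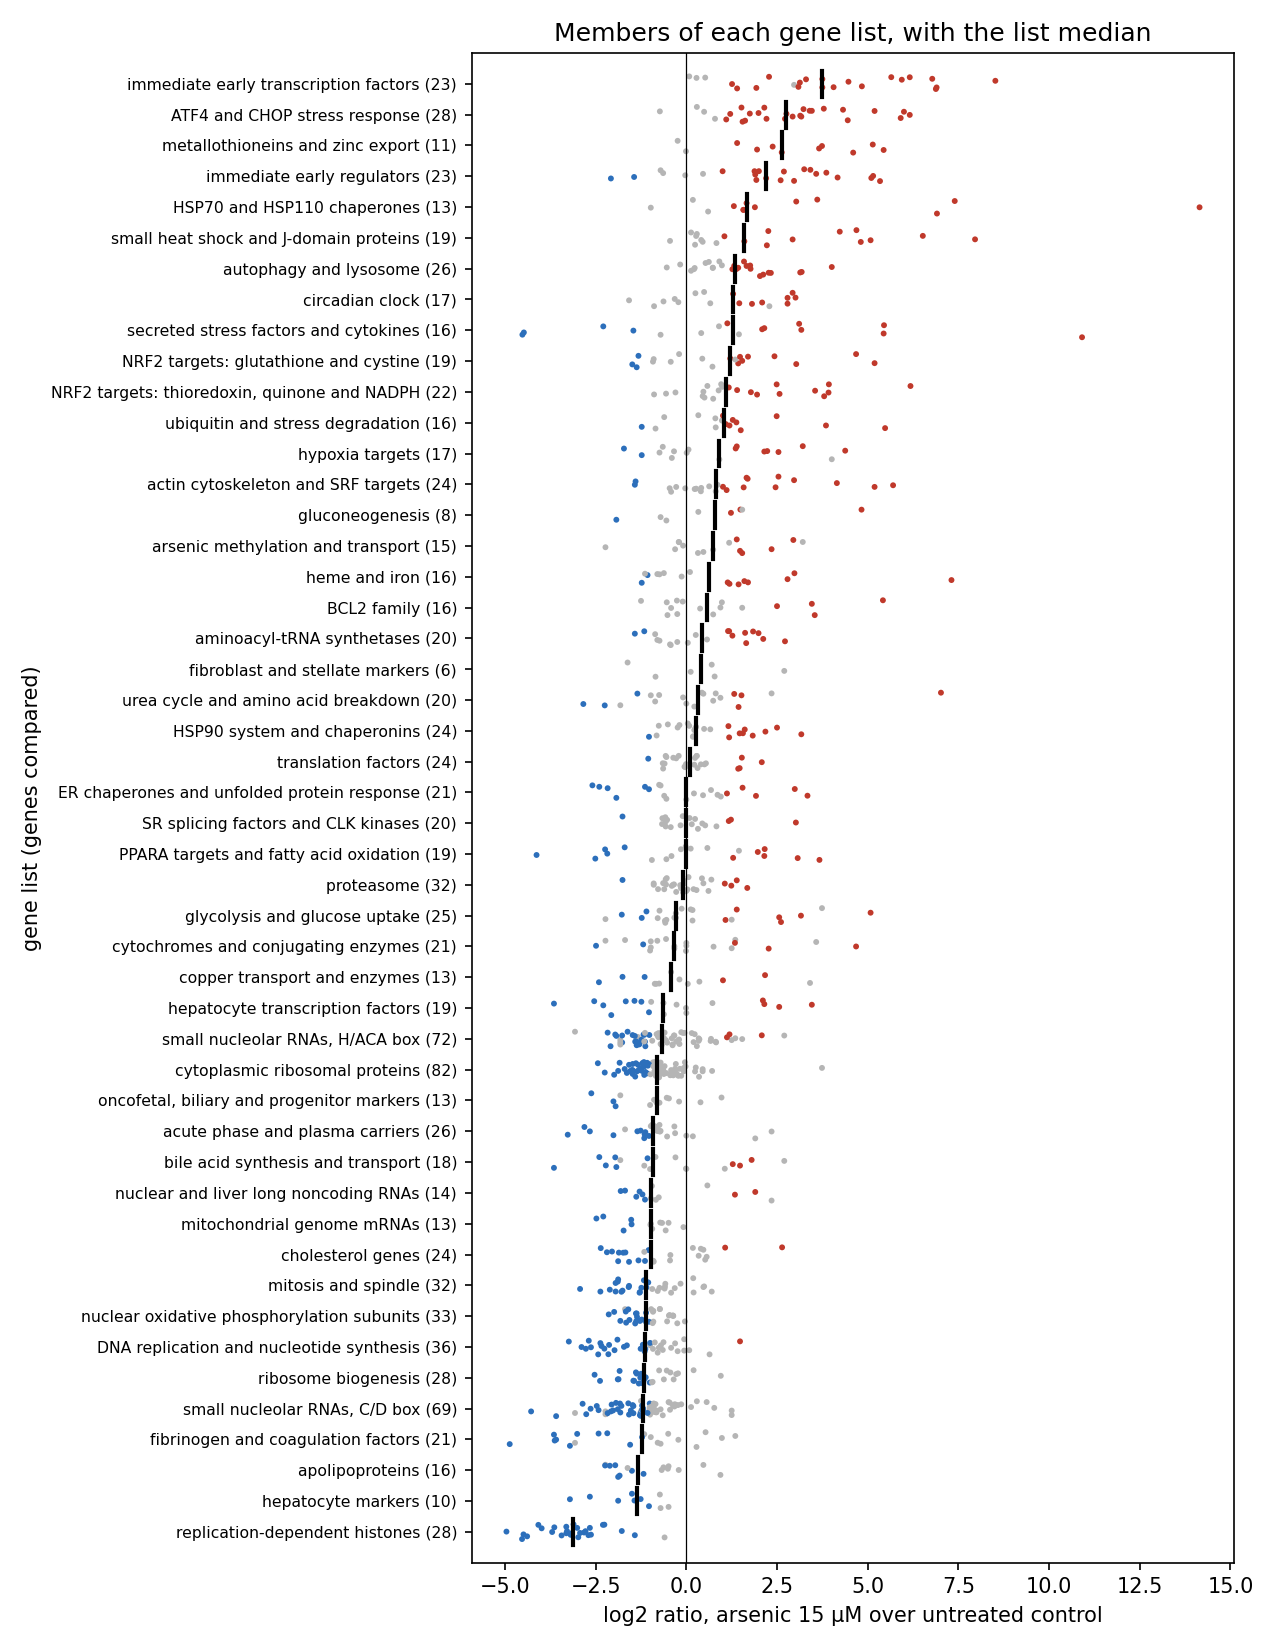
Each row is a gene list, each point a member with its log2 ratio of arsenic 15 µM over control on the x axis, red where apart and higher, blue where apart and lower, and the bar is the list median. Early transcription factors top the order with a median of 3.75, and histones close it at -3.13.

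Plasma protein genes were on the low side. Among 21 fibrinogen and coagulation genes 10 were apart and lower, 9 of them below every library without arsenic, none was apart and higher, and the median log2 ratio was -1.22. FGA, the fibrinogen alpha chain, was at 509 CPM in the control, between 508 and 899 CPM over the 6 libraries without arsenic with a median of 563, and at 17.2 CPM with arsenic 15 µM, 29.6 times lower [22.0 to 40.7]. It was at 93.1 CPM at arsenic 5 µM and 164 CPM with copper, so all 3 arsenic libraries were below the others.

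The other fibrinogen chains stood lower too, FGB by 9.30 times [8.02 to 10.8] and FGG by 8.11 times [6.26 to 10.6]. SERPIND1, heparin cofactor II, was 12.9 times lower [8.34 to 20.7]. F2, prothrombin, had a ratio of 0.704 [0.612 to 0.812] and was not called apart.

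Apolipoprotein and lipoprotein assembly genes were apart and lower in 7 of 16 cases and higher in none, 3 of them below the range without arsenic. APOA1 was 2.83 times lower [2.51 to 3.18] at 199 CPM, and MTTP, the transfer protein that loads lipid onto apoB, 3.92 times [3.14 to 4.90]. Acute phase and carrier genes were lower in 10 of 26 cases, 4 below the range. TTR, transthyretin, was 6.37 times lower [5.06 to 8.07], at 38 against 242 CPM, and ORM1 and ORM2 were 7.04 [5.47 to 9.13] and 9.75 times lower [7.49 to 12.8], both inside the range without arsenic.

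AFP was at 1466 against 5891 CPM, 4.02 times lower [3.86 to 4.18] and below the 3663 to 9053 CPM without arsenic. ALB, albumin, was at 3330 against 6790 CPM, 2.04 times lower [1.98 to 2.10], close to the 3380 CPM of the lowest library without arsenic. The fetal liver genes GPC3 and IGF2 were not called apart, with ratios of 0.716 [0.646 to 0.795] and 0.689 [0.593 to 0.803].

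Hepatocyte transcription factors were apart and lower in 8 of 19 cases and higher in 4. HNF4A, the central one, was 2.70 times lower [2.35 to 3.09] and FOXA1 4.23 times [3.10 to 5.83]. NR1H4, the bile acid receptor FXR, was 12.8 times lower than the control [8.36 to 20.4], at 9.32 against 120 CPM, but acetaminophen with caffeine reached 6.97 CPM. CEBPB, the stress-responsive C/EBP, was 11.1 times higher [7.55 to 16.9]. MIR122HG, the host of the liver microRNA miR-122, was at 1.08 against 45.4 CPM, 42.2 times lower [13.6 to 212].

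**Figure D4:**
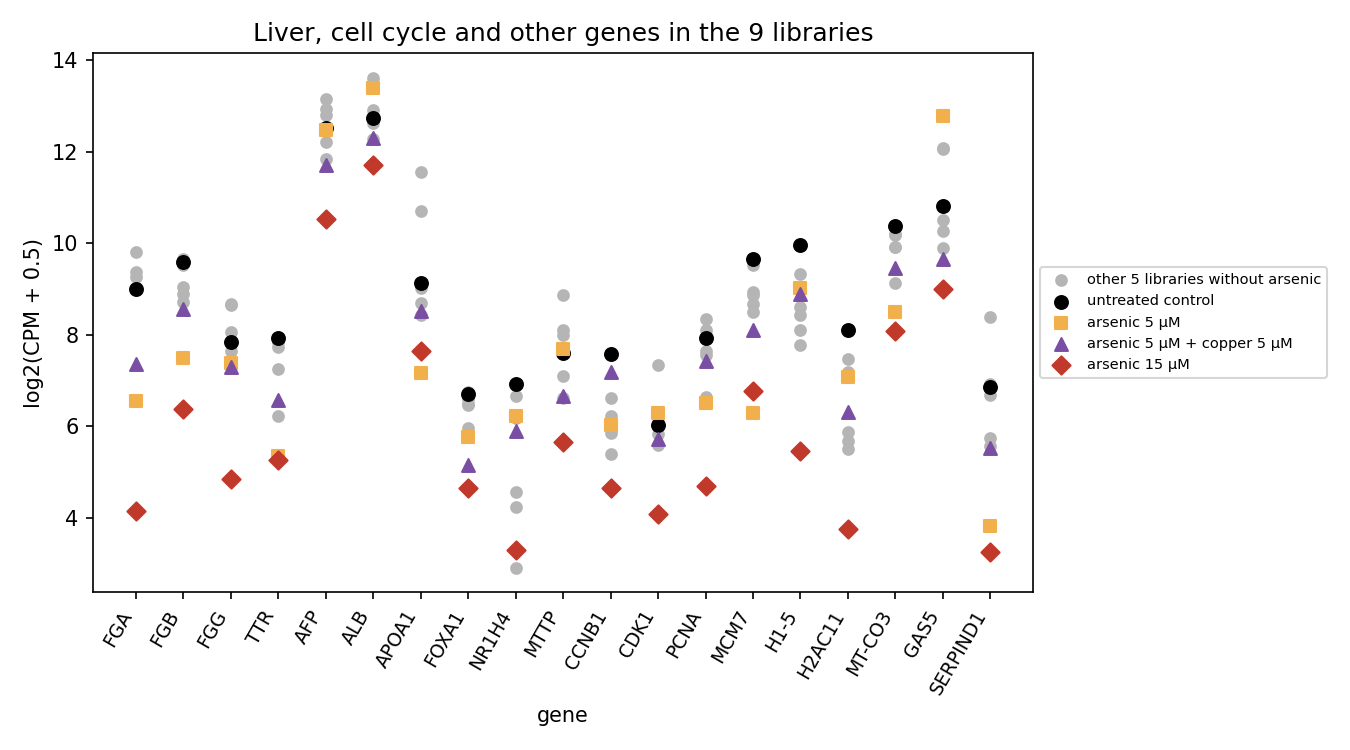
The y axis gives log2(CPM + 0.5) in each of the 9 libraries for 19 genes on the x axis, with the same symbols as for the stress genes. The red diamond of arsenic 15 µM is the lowest point for each gene except 3: APOA1 and MCM7 were lower at arsenic 5 µM, at 143 and 77.4 CPM, and NR1H4 was lower with acetaminophen and caffeine.

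Metabolic genes had members on both sides. Of 24 cholesterol genes 11 were apart and lower, 9 of them below the range. NSDHL and EBP, enzymes of sterol synthesis, were 5.22 [3.40 to 8.15] and 4.15 times lower [3.60 to 4.78], and SQLE, squalene epoxidase, 3.36 times [2.44 to 4.65]. EBP, at 118 CPM, was inside the range without arsenic of 107 to 489 CPM. INSIG1, which holds the sterol sensor in the endoplasmic reticulum, was 2.10 times higher [1.67 to 2.68].

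In fatty acid oxidation CPT1A, the gate to the mitochondrion, was at 163 CPM, 13 times higher than the control [7.53 to 24.6]. For CPT1A the 6 libraries without arsenic ran from 12.5 to 123 CPM, and the control was the lowest of them. CPT2 and ACADM, which act after CPT1A, were 4.71 [2.46 to 9.32] and 4.88 times lower [2.56 to 9.61]. In glycolysis HK2, the inducible hexokinase, was 8.99 times higher [7.24 to 11.3] and LDHA, lactate dehydrogenase, 3.44 times lower [3.07 to 3.85]. HPD, a tyrosine breakdown enzyme, was at 1 count or 0.965 CPM in the control, at most 4.48 CPM without arsenic and at 159 CPM with arsenic 15 µM, 164 times higher [29.3 to 6503].

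Cell cycle genes were low. In the mitosis and spindle list 18 of 32 were apart and lower, 13 of them below the range, none was higher, and the median log2 ratio was -1.10. CCNB1, cyclin B1, was at 190 CPM in the control, between 41.7 and 192 CPM without arsenic and at 24.7 CPM with arsenic 15 µM, 7.68 times lower [5.81 to 10.3]. CDK1, its kinase, was 3.92 times lower [2.65 to 5.83] and AURKB 5.22 times [3.99 to 6.88].

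DNA replication and nucleotide synthesis genes were apart and lower in 20 of 36 cases, 17 of them below the range, and higher in 1, with a median of -1.14. PCNA, the sliding clamp, was at 242 CPM in the control, at least 99.7 CPM in each library without arsenic and at 25.5 CPM with arsenic 15 µM, 9.51 times lower [7.28 to 12.6]. MCM7 and MCM3, parts of the replicative helicase, were 7.41 [6.49 to 8.48] and 6.84 times lower [5.71 to 8.21]. CCNE1, cyclin E1, was the higher one, by 2.81 times [1.81 to 4.55].

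Replication-dependent histone genes, whose messages lack poly(A) tails and are made in S phase, had the lowest median, -3.13, with 27 of 28 apart and lower. Only 12 of those lay below the range without arsenic, and for H1-5, H1-3, H2AC11, H2BC5 and H3C13 the control was the highest of that range. H1-5 was at 988 CPM in the control, between 219 and 988 CPM without arsenic with a median of 367, and at 43.7 CPM with arsenic 15 µM, 22.6 times lower than the control [18.7 to 27.5]. Against the exosome library in place of the control, an alternative chosen after seeing the data, the list median was -2.31, and with length and GC trends removed -2.29. These genes are near copies of each other, so single values are uncertain.

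Short and abundant RNAs need the length trend beside them. Cytoplasmic ribosomal protein genes were apart and lower in 31 of 82 cases but below the range without arsenic in 2, and their median of -0.80 became -0.36 with the trends removed, with 15 lower. Nuclear oxidative phosphorylation subunits were lower in 17 of 33 cases, 6 below the range, with a median of -1.11 and -0.90 with the trends removed. The 13 mitochondrial messages had a median of -0.98, and -0.11 with the trends removed; MT-CO3, a subunit of complex IV, was 4.88 times lower [4.46 to 5.34]. Box C/D small nucleolar RNAs had a median of -1.19 and box H/ACA ones of -0.66, and with the trends removed both turned to 0.46 and 1.16. The part of transcript length in these values was not tested beyond this.

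Ribosome biogenesis factors had a median of -1.17 with the trends removed against -1.16 as measured. Of 28 compared 17 were apart and lower, 7 of them below the range, and none higher. NOP14, a processing factor of the small subunit, was 5.24 times lower [3.95 to 7], and POLR1A, the large subunit of RNA polymerase I, 2.76 times [2.20 to 3.46]. Among snoRNA host genes GAS5 and SNHG1 were 3.51 [3.27 to 3.76] and 2.61 times lower [2.51 to 2.72]. Of the nuclear long noncoding RNAs NEAT1 and MALAT1 were 3.74 [3.12 to 4.51] and 2.53 times higher [2.37 to 2.69], both inside the range of the libraries without arsenic, in which the control was the lowest. With the trends removed their log2 ratios fell from 1.90 to 0.94 for NEAT1 and from 1.34 to 0.72 for MALAT1, and neither was called apart.

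The control as the only reference weighs on all these counts. Among the 3037 genes apart and higher it was the lowest of the 6 libraries without arsenic in 1244, or 41.0%, and among the 2595 apart and lower it was the highest in 827, or 31.9%. Genes named above as outside the range lay beyond all 6 of those libraries.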

How the data were processed

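RNA from 9 HuH-7 cultures was sequenced, 1 library per condition, so p-values were not computed. Per the submitters' processing notes TopHat2 2.0.13, HTSeq 0.6.1 and GRCh37 were used; their settings, strand included, were not given in these sources. Values are counts per Ensembl gene, deposited by the authors without normalization. Lines that name no gene (such as not unique or no feature) held 64.0% of the control's reads and 42.8% of those with arsenic 15 µM and were left out. Of 63677 identifiers 52526 got a symbol from a gene name table or GENCODE 29, whose longest transcript gave length and GC content. Genes with 1 CPM or more in 2 of 9 libraries were compared. TMM factors came from edgeR 4.0.16 (R 4.3.3), used for scaling alone, and DESeq2 1.42.0 gave alternative size factors. Log2 ratios used a prior of 0.5 counts, scaled to library size, and intervals were exact conditional binomial 95% intervals (scipy 1.17.1), which cover counting error only, since reads without molecular identifiers are not independent molecules. The floor for a gene with no count was 3 counts per library, 2.89 CPM in the control and 1.08 CPM with arsenic 15 µM. The ratio and interval code was checked on simulated data.

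Genes were named by a rule: the 15 protein-coding genes and 5 others furthest each way by the interval bound nearest to 1, up to 6 members per list with the widest log2 ratio at 5 CPM or more in either library, and defining members. Other genes named were picked from the lists after their values were seen, to show contrasts within a family. Some genes are not reported here. The comparison, the 52 lists and the rule were chosen with earlier results of these data known. Alternatives were other scalings, filters, prior count, fold, depth, trends on GC content and length, and the exosome library as reference.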

Additional observations from a re-analysis of the deposited data

How the results depend on the processing

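A 4-fold limit in place of 2 gave 1477 higher and 1142 lower genes, 1284 and 708 of them outside the range of the 6 libraries without arsenic. Under every other alternative these counts stayed within 1.5 times those reported: 2459 to 2988 higher and 2368 to 3191 lower. Library totals moved every log2 ratio by -0.22 and turned the split to 2485 higher and 3191 lower; scaling on protein-coding genes moved them by -0.15 and the 5 CPM filter by -0.13. Removing trends on GC content and length reversed the medians of box C/D (0.46) and H/ACA (1.16) small nucleolar RNAs. Of the genes in the naming rule called apart it reversed SNORA12 (0.19). Many small nucleolar RNAs outside that rule changed sign too, such as SNORA60 (-1.62 to 0.21) and SNORD9 (-1.26 to 0.49). With the exosome library as reference, chosen after seeing the data, ABCG8 (0.24) and DDI2 (-0.02) were the genes of the naming rule called apart that changed sign. Values that were not called, such as those of SOD1 (0.07), BAD (0.04), EEF1B2 (0.01), CPS1 (0.06) and COL1A1 (-0.09), and the medians of some lists changed sign under 1 alternative or more, as did the fibroblast marker median (0.41, and -0.58 at the lowest). Calls close to 2-fold were also lost: HSPA5, HSPE1, INSIG1, FTL and GCLC with library totals, CALR and ALB with trends removed, and PSME4 against the exosome library. Of 305 genes in the naming rule, 279 kept their call against the exosome library, 276 with trends removed and 297 with the arsenic 15 µM library thinned to the control's depth. The control's 951816 gene counts limit what can be seen of genes at a few CPM. No paired analysis was possible because each condition has 1 library.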

Other observations

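Several of the genes furthest apart belong to none of the groups described. The protein-coding genes furthest below the control also included PI3, which encodes the elastase inhibitor elafin: it had no count with arsenic 15 µM, 18.3 CPM in the control and 11 CPM or more in each library without arsenic, at least 17.0 times lower. CX3CL1, the membrane-bound chemokine fractalkine, was at 3.59 against 77.2 CPM, 21.5 times lower [11.1 to 46.6], and at 88.9 CPM with arsenic 5 µM. TSPAN8, a tetraspanin, was 29.6 times lower [10.8 to 113], TCF19 39.0 times [9.87 to 337] and the mitochondrial ribosomal protein gene MRPL17 18.8 times [10.5 to 36.7]. C4BPB, a chain of the complement regulator C4b-binding protein, was at 1 count or 0.359 CPM against 25.1 CPM, 70.0 times lower [11.5 to 2868].

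Outside the protein-coding genes, MCPH1-AS1 and PDE7B-AS1 had no count in the control and were at 28.0 and 26.9 CPM with arsenic 15 µM, at least 9.66 and 9.29 times the floor. Without the strand setting, reads of an antisense RNA and of its partner gene cannot be told apart. LINC00958 was at 44.1 against 1.93 CPM, 22.9 times higher [6.19 to 191] on 2 control counts. Small nuclear RNA copies named for their distance below the control were RNU6-14P at 0.359 against 35.7 CPM and RNU2-14P at 0.717 against 42.5 CPM. With trends on GC content and length removed their log2 ratios went from -5.86 to -4.08 and from -5.45 to -3.62. By gene type, 68 of 161 small nuclear RNAs, or 42.2%, were apart and lower and none higher, and the part of their short length in this was not tested. Of 595 processed pseudogenes 9.58% were apart and lower, under the 14.2% of all compared genes, and 1.68% apart and higher, against 16.7%. Their median log2 ratio was -1.69, against 0.00 over all compared genes. As few were called apart, most ratios that low had counting intervals that include 1, so this median rests on low counts. Lines for alignments that were not unique held 46.8% of the control's reads and 33.1% of those with arsenic 15 µM. Their part in the values of such near copies was not tested.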
